A study of Mus musculus with 8 samples.

Results

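The genes described here are 26 genes of cholesterol synthesis and of the SREBP2 pathway that controls it. They were listed by function and found by symbol in the count tables, 26 of 23212 gene symbols, and 25 of the 26 held enough counts to be tested among 14493 tested genes. The samples were 8 C57BL/6 mice, 4 of them wild type (WT 1 to WT 4) and 4 with an adipocyte-specific gene knockout (KO 1 to KO 4), and the RNA came from their whole perigonadal fat. All mice, controls included, were 20 weeks old and had eaten a diet with 45% fat for 12 weeks, from 8 weeks of age, and genotypes were matched for age and weight. The knockout is confined to adipocytes by its label, so the other cells of the tissue keep the gene; the driver of the deletion is not given in the sources used here.

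Cholesterol is made from acetyl-CoA through mevalonate, isoprenoids, squalene and lanosterol. The transcription factor SREBP2, encoded by Srebf2, is held in the endoplasmic reticulum by SCAP and the INSIG proteins while sterols are plentiful. When sterols fall, SCAP carries it to the Golgi, proteases release its active part, and genes of sterol synthesis are switched on, Insig1 among them. Adipocytes hold a large store of free cholesterol. The related factor SREBP1 acts chiefly on genes of fatty acid synthesis.

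No member separated the genotypes. Enzymes such as Fdps, Sqle, Lss, Cyp51 and Nsdhl instead separated mice within each genotype: they were highest in WT 2 among wild types and in KO 2 among knockouts, up to 3.48-fold above the next library. Genes of the SREBP machinery other than Insig1 did not share this pattern, and neither did the enzyme genes Hmgcs1, Ggps1, Fdft1, Lbr and Sc4mol. Because WT 2 and KO 2 stood apart in these genes, the comparison of genotypes is given with and without them.

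The promoters of 5 members are printed first. Hmgcs1 is shown because, of the members with a window, it alone held the classical sterol regulatory element. Acat2, Lss, Cyp51 and Nsdhl are shown because they were at least 2-fold higher in WT 2 and in KO 2 than in the other libraries of the same genotype. Fdps was too, but no window was found for it. Each runs 5′ to 3′ on the gene's strand from 250 bases before to 50 after a RefSeq start site (GRCm38.p6, the same primary assembly as mm10). Capitals mark exact matches, on either strand, to TCACNCCAC (sterol regulatory element), CCAAT (the NF-Y motif, read as ATTGG on the other strand) and GGGCGG (the Sp1 motif, read as CCGCCC).
Hmgcs1 chr13:119690101-119690400 (plus strand): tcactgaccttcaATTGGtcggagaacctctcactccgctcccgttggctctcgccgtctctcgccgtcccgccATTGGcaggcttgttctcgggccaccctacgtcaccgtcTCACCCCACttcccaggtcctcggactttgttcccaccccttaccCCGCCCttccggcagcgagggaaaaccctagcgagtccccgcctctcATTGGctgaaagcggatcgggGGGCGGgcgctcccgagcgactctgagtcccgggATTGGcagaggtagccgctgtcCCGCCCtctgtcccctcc
Acat2 chr17:12960676-12960975 (minus strand): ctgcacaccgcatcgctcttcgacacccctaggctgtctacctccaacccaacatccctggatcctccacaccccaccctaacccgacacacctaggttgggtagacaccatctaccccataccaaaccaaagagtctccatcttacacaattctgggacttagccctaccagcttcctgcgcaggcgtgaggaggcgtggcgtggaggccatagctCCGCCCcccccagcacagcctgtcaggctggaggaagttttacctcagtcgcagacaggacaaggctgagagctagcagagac
Lss chr10:76531355-76531654 (plus strand): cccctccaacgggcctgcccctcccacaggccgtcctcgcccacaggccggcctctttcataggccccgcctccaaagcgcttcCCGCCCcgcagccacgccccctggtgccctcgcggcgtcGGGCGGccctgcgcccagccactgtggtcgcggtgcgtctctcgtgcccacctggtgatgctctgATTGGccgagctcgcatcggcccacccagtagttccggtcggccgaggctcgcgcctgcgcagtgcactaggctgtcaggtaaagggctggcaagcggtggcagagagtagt
Cyp51 chr5:4104648-4104947 (minus strand): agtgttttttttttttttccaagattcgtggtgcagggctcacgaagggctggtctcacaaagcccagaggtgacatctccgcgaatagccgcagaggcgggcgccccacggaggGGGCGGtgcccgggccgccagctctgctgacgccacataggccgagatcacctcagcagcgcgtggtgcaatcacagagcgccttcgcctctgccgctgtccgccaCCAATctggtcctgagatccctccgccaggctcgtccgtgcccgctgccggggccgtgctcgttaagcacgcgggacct
Nsdhl chrX:72918271-72918570 (plus strand): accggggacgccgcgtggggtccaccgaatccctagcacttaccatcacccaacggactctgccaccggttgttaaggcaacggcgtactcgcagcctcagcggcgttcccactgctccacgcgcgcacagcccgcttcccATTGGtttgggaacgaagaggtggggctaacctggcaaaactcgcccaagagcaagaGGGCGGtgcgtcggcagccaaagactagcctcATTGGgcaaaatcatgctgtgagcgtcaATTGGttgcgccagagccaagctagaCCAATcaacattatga

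RefSeq windows were found for 22 of the 26 members, 28 windows in all. Fdps, Sqle, Fdft1 and Stard4 had none and were not searched. TCACNCCAC occurred in 1 of these 22 genes, and in 1.44% of 27025 genes with a window. CCAAT occurred in 19 of 22 members, against 41.1% of these 27025 genes, and GGGCGG in 20 of 22, against 38.2%. The 27025 genes were not limited to genes tested in this tissue, so the shares do not compare members with other expressed genes. A gene with several windows counted if any of them held the motif. Both short motifs are common near start sites, they were counted whether or not they overlapped another match, and the exact element is only 1 form of the sites that SREBPs bind. Of the printed windows, those of Hmgcs1, Lss, Cyp51 and Nsdhl held CCAAT, and that of Acat2 held only GGGCGG. The Hmgcs1 window lies upstream of the start of that gene in the deposited annotation.

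The libraries held 46444435 to 51431956 counts, and Idi1 had the fewest of the tested members, 29 to 80 per library. Adipocyte genes such as Adipoq and Plin1 were abundant in every library. The summed level of 15 adipocyte genes was 50640 CPM (counts relative to the TMM-scaled library size) in WT 2, within the 47280 to 66620 CPM of the other wild types, and 49850 CPM in KO 2, below the 52680 to 71760 CPM of the other knockouts. Summed macrophage genes (18) were likewise within range in WT 2, at 807.1 CPM against 670.3 to 2112 CPM, and lowest in KO 2, at 941.1 CPM against 1105 to 3593 CPM. Summed endothelial genes (10) were lowest in WT 2, at 801.1 CPM against 1055 to 1291 CPM, and at 922.3 CPM in KO 2, within 782.3 to 1352 CPM. Summed proliferation genes (16) were within the range of the other libraries of the genotype, at 67.8 CPM in WT 2 and 96.0 CPM in KO 2. Of 14 epithelial genes, 12 were in the tables, and their sum was 261 CPM in WT 2 and 263 CPM in KO 2, above the 75.4 to 204 CPM of the other libraries. Of these genes, Foxj1 and Epcam were at 26.1 and 19.6 CPM in KO 2 and at 7.97 and 5.79 CPM in WT 3. In WT 2 they were at 0.0588 and 0.177 CPM, and Krt19 (115 CPM) and Tppp3 (88.5 CPM) made up most of the sum. KO 2 was the highest knockout for 7 of 9 tested epithelial genes (31.1% of all genes), but not for Krt19 (34.0 CPM) or Tppp3 (55.6 CPM). The part of any of these cells in the sterol results was not tested. In whole tissue, fewer cells of a type and less RNA per cell cannot be told apart.

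**Figure D1:**
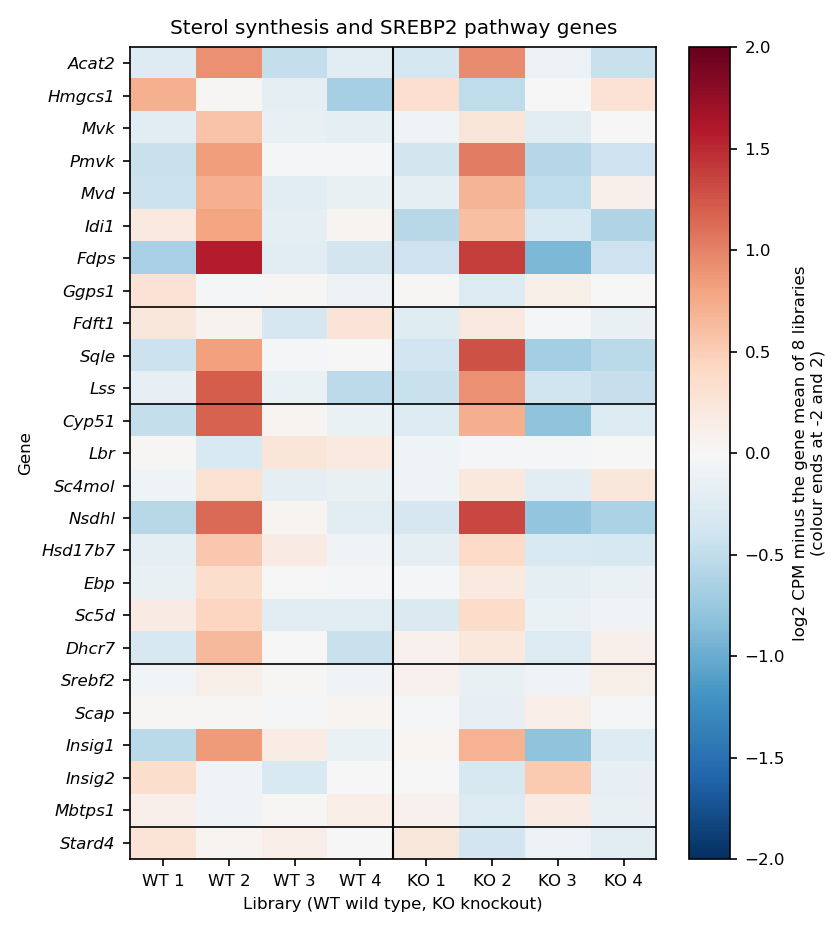
Level of the 25 tested members in the 8 libraries (columns), as log2 CPM minus the gene's mean over all libraries (colour). Horizontal lines part the mevalonate steps, squalene steps, steps after lanosterol, SREBP control proteins and Stard4; the WT 2 and KO 2 columns are red for most enzymes, and Hmgcs1, Ggps1, Lbr and most control proteins are not.

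Among the mevalonate and isoprenoid steps, Fdps (mm10 chromosome 3, 89093588 to 89101967) makes farnesyl diphosphate, the branch point from which sterols and prenyl groups are built. It was at 7.55, 35.1, 10.1 and 9.15 CPM in WT 1 to WT 4 and at 8.85, 30.8, 6.30 and 8.80 CPM in KO 1 to KO 4. WT 2 and KO 2 were thus 3.46-fold and 3.48-fold above the next library of their genotype, and the genotypes overlapped. Acat2, which joins acetyl-CoA units in the cytosol, was at 52.3, 118, 44.9 and 53.9 CPM in the wild types. Its knockout values were 49.3, 121, 57.5 and 45.9 CPM, again with library 2 alone high. Pmvk, phosphomevalonate kinase, was at 143 CPM in WT 2 and 58.6 to 79.0 CPM in the other wild types, and at 162 CPM in KO 2 and 53.9 to 61.7 CPM in the other knockouts.

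Mvk and Mvd, the kinase and the decarboxylase of mevalonate intermediates, had the same order with smaller steps. WT 2 was 1.64-fold (Mvk) and 1.82-fold (Mvd) above the next wild type, and KO 2 was 1.18-fold and 1.49-fold above the next knockout. Idi1, which isomerises isopentenyl diphosphate, had the lowest level of the tested members per kilobase of exon, and was at 1.03, 1.57, 0.799 and 0.943 CPM in the wild types and 0.614, 1.38, 0.737 and 0.594 CPM in the knockouts. It too was highest in WT 2 and KO 2.

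Hmgcs1, which makes HMG-CoA, ran differently. It was at 524, 323, 280 and 201 CPM in WT 1 to WT 4 and at 403, 225, 316 and 388 CPM in KO 1 to KO 4. WT 1 was therefore the highest wild type, and KO 2 was the lowest knockout. Per kilobase of exon, Hmgcs1 had the highest level of all members (101 CPM per kb in each genotype), followed by Pmvk at 59.5 and 56.0 and Sc5d at 56.3 and 53.5 CPM per kb in wild type and knockout. Ggps1, which leads from farnesyl to geranylgeranyl diphosphate for protein prenylation and away from sterols, was at 18.4 to 24.3 CPM in the wild types and 16.5 to 21.5 CPM in the knockouts, with KO 2 the lowest.

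Among the squalene steps, Sqle (chromosome 15, 59315092 to 59331193), squalene epoxidase and a controlled step of the pathway, was at 9.70, 23.1, 12.7 and 13 CPM in the wild types and 9.96, 31.4, 8.15 and 8.94 CPM in the knockouts. WT 2 was 1.78-fold and KO 2 3.16-fold above the next library. Lss, which closes the ring to lanosterol, was at 25.0, 64.2, 25.3 and 19.5 CPM in the wild types and 20.5, 52.3, 21.1 and 20.1 CPM in the knockouts, so that library 2 was 2.54-fold and 2.47-fold above the next. Lss shares 188 exonic bases (6.06%) with 4930483K19Rik. Fdft1, squalene synthase, was at 30.0 to 45.7 CPM in the wild types, highest in WT 4, and 32.3 to 43.4 CPM in the knockouts, highest in KO 2. Fdft1 shares 774 exonic bases (27.0%) with the protease gene Ctsb, so its counts are less certain.

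After lanosterol, Cyp51, the lanosterol demethylase, was at 26.7, 83.9, 38.3 and 33.7 CPM in the wild types and 30.5, 61.5, 21.1 and 30.7 CPM in the knockouts. Nsdhl, the sterol decarboxylase, was at 34.5, 112, 53.2 and 44.1 CPM in the wild types and 40.6, 129, 29.4 and 32.8 CPM in the knockouts, with KO 2 3.17-fold above the next knockout. Library 2 stood alone in both genotypes for these enzymes. Dhcr7, which reduces 7-dehydrocholesterol to cholesterol, was at 18.9, 37.0, 23.7 and 17.4 CPM in the wild types and 25.0, 27.3, 19.6 and 25.3 CPM in the knockouts, where KO 2 exceeded the next library by only 1.08-fold.

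Hsd17b7, Ebp and Sc5d, a ketoreductase, an isomerase and a desaturase of late sterols, were also highest in WT 2 and KO 2, by 1.18-fold to 1.5-fold. Sc4mol (now named Msmo1), the methyl sterol oxidase, was highest in WT 2 at 37.7 CPM, but KO 2 and KO 4 were level at 35.2 and 35.5 CPM. Lbr, the lamin B receptor that also carries sterol reductase activity, was lowest in WT 2 (23.5 CPM, against 29.7 to 34.4 CPM) and at 27.3 to 28.9 CPM in the knockouts. Tm7sf2, the other reductase of this step, had 0 counts in every library. All 1479 of its exonic bases on chromosome 19 (6062821 to 6067850) also belong to 1110014N23Rik in the deposited annotation, and that symbol was at 24.4 to 34.0 CPM, so the 0 gives no level for Tm7sf2.

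Among the proteins that control SREBP2, Insig1 (chromosome 5, 28071412 to 28078662), a retention protein and itself a target of SREBPs, was at 70.1, 184, 113 and 93.2 CPM in the wild types and 105, 166, 58.1 and 85.1 CPM in the knockouts. It followed the enzymes, with library 2 highest in both genotypes by 1.63-fold and 1.58-fold. Insig2, the related retention protein, was at 125, 93.6, 79.6 and 97.3 CPM in the wild types and 97.9, 78.7, 142 and 88.1 CPM in the knockouts, so KO 2 was the lowest knockout and WT 2 was between its neighbours. Per kilobase of exon, the ratio of Insig1 to Insig2 was 1.88 in WT 2 and 2.01 in KO 2, and 0.39 to 1.35 in the other libraries. The libraries with the highest and the lowest ratio, KO 2 and KO 3, were both knockouts.

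Srebf2 itself (chromosome 15, 82147269 to 82204960) was at 41.6, 46.8, 43.8 and 41.1 CPM in the wild types and 45.7, 39.1, 41.1 and 46.9 CPM in the knockouts, with KO 2 the lowest knockout. Scap, the escort protein, was at 60.6 to 63.7 CPM in the wild types and 55.1 to 67.4 CPM in the knockouts. Mbtps1, the site-1 protease, was at 120 to 138 CPM in the wild types and 104 to 140 CPM in the knockouts, and was the only member lowest in both WT 2 and KO 2, an order that 12.6% of all tested genes had. The coefficient of variation in wild type was 6.02% for Srebf2, 2.04% for Scap and 6.15% for Mbtps1, against 84.7% for Fdps and 61.7% for Lss. Stard4, which carries sterols between membranes, was at 6.07, 5.20, 5.49 and 5.01 CPM in the wild types and 5.86, 3.85, 4.63 and 4.32 CPM in the knockouts, also lowest in KO 2.

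**Figure D2:**
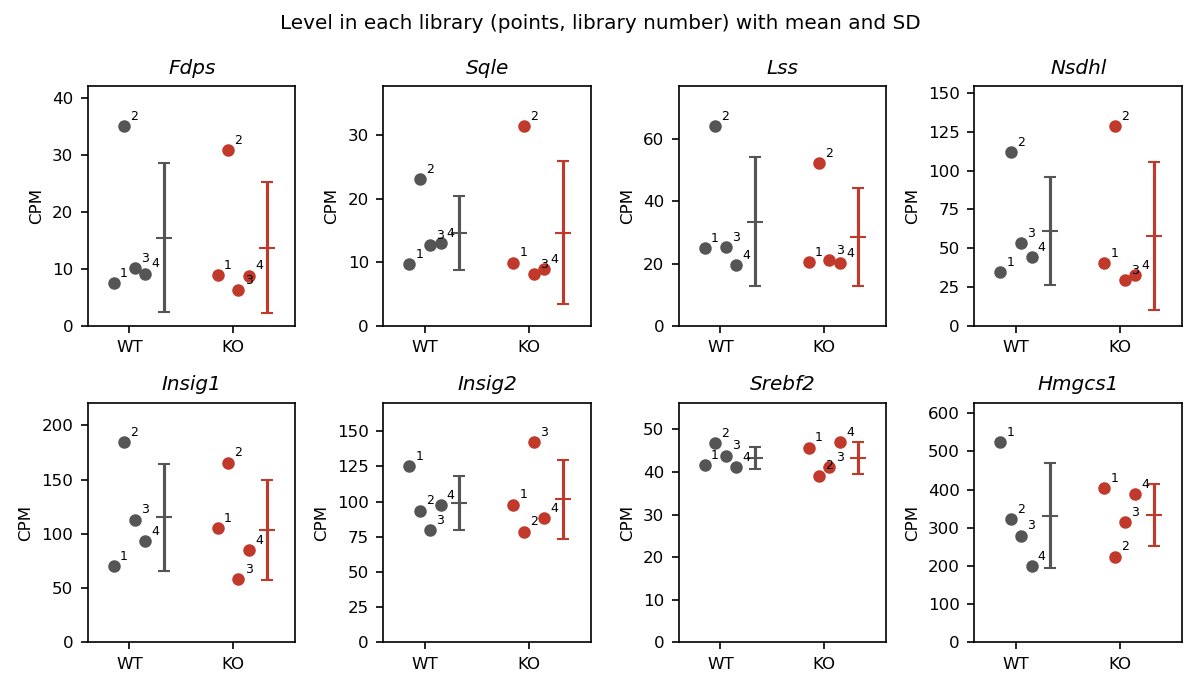
CPM of 8 members in each library; points carry the library number, and the bar beside them is the mean with its SD (n = 4 mice per genotype). Library 2 of both genotypes is apart for Fdps, Sqle, Lss, Nsdhl and Insig1, and not for Insig2, Srebf2 or Hmgcs1.

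WT 2 was the highest wild type and KO 2 the highest knockout for 15 of 25 tested members (60.0%), and for 14.4% of all 14493 tested genes. By role, these 15 were 6 of 8 mevalonate genes, 2 of 3 squalene genes, 6 of 8 tested genes after lanosterol, and 1 of 5 control genes (Insig1). Taken singly, WT 2 was the highest wild type for 17 members (30.8% of all genes) and KO 2 the highest knockout for 16 (31.1% of all genes). The step was at least 1 log2 unit in both genotypes for 5 members (Fdps, Lss, Nsdhl, Acat2 and Cyp51, the last with a step of 1.00 in knockout), against 0.179% of all genes. These counts describe a pattern noticed in the levels, and WT 2 and KO 2 were not chosen by any label. Sharing the number 2 carried no stated meaning, since the labels give no litter, batch or day. The count was 15 with median-ratio scaling and with total counts as well.

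**Figure D3:**
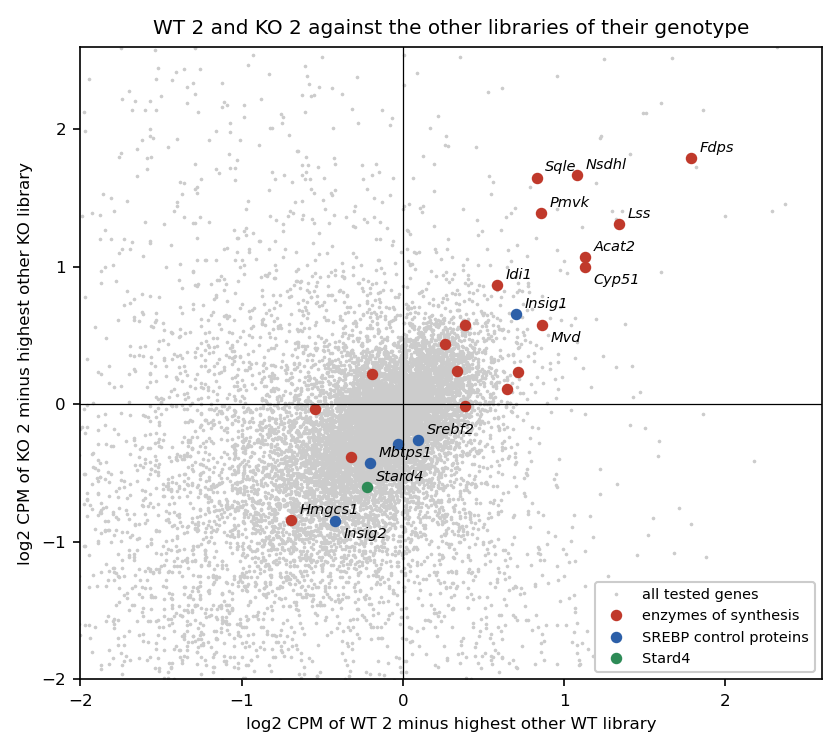
For each gene, log2 CPM of WT 2 minus the highest other wild-type library (horizontal) against the same for KO 2 and the other knockouts (vertical); grey, all tested genes, of which some lie outside the axes; colours, members by role. The upper right part, where both are highest, holds 15 of 25 members, with Fdps farthest out.

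Correlations among the 19 tested enzymes depended on this pair of libraries. Their pairwise Pearson correlation over the 8 libraries had a median of 0.73, and over the 6 libraries without WT 2 and KO 2 a median of 0.0443. The pair was noticed by its high levels of these same enzymes, so a fall without it follows in part from that choice. By ranks the relation among the enzymes over the 8 libraries was weaker, with a median Spearman correlation of 0.405. Enzyme pairs at 0.5 or more made up 41.5% by ranks and 62.0% by Pearson, against 14.8% of all gene pairs by Pearson. Over the 6 libraries the Pearson share was 26.3% of enzyme pairs, against 19.0% of all gene pairs. Over all pairs of tested genes the medians were -0.002 and 0, and the pairs share their libraries, so these values are descriptions. Over the 8 libraries, Fdps had the highest median correlation with the other enzymes (0.925), and Ggps1 (-0.525), Lbr (-0.496) and Hmgcs1 (-0.333) were below 0. Among the control genes Insig1 had a median of 0.828 with the enzymes, Srebf2 -0.0195, Scap -0.441, Insig2 -0.496 and Mbtps1 -0.623. With 6 libraries, the values of Fdps and Insig1 were 0.437 and 0.468 and that of Insig2 was -0.573.

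Between genotypes, no member passed an adjusted p of 0.05 in edgeR's quasi-likelihood test, where 0.0138% of all tested genes did (2 of 14493, none of them a member). No member had an unadjusted p under 0.05, against 2.23% of all genes, and limma voom called 0 members, as did DESeq2, which called 0.102% of all genes. In no member did the 4 knockout values clear the 4 wild-type values, which 1.44% of all genes did. Knockout exceeded wild type in 7 members and was lower in 18, with a median log2 fold change of -0.08, where 53.1% of all genes were above 0 with a median of 0.01. This balance moved with single mice. Members above 0 numbered 16 without WT 2, 12 without KO 3, 8 without KO 1 and 6 without KO 4. They numbered 4 without WT 1 or without KO 2, 2 without WT 4 and 1 without WT 3. With WT 2 and KO 2 both left out the count was 9, where 51.6% of all genes were above 0. The share of all genes is not given for the single removals, so these shifts may not be particular to the members.

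How firmly a difference was bounded depended on the member. Fdps was at 15.5 ± 13.1 CPM in the wild types and 13.7 ± 11.5 CPM in the knockouts (SD over 4 mice each). Its log2 fold change was -0.18 (SE 0.64, edgeR adjusted p = 1), whose 95% interval ran from -1.63 to 1.27. That interval was -0.64 to 0.30 without WT 2 and KO 2. Sqle was at 14.6 ± 5.85 and 14.6 ± 11.2 CPM, with an interval of -1.07 to 1.07 that became -0.79 to 0.01 without these libraries around a log2 fold change of -0.39 (edgeR adjusted p = 0.996). The standard error was smaller for 20 of 25 members when WT 2 and KO 2 were left out, and no member passed there either, the smallest adjusted p in edgeR being 0.996, with 0% of all genes called. Without the pair, 0 members had an unadjusted p under 0.05, against 3.74% of all genes. There was 1 such member without KO 2 alone (Sqle, against 3.97% of all genes). There were 3 without WT 3 and KO 2, the libraries highest in Foxj1 and Epcam within their genotypes. These were Fdft1, Idi1 and Sqle, all lower in knockout, against 5.58% of all genes. The smallest adjusted p in edgeR there was 0.87. With all libraries, the intervals of 7 members (Pmvk, Idi1, Fdps, Sqle, Lss, Cyp51 and Nsdhl) still held a 2-fold difference in some direction. Without the pair only that of Idi1 did. The pair was chosen for its high values in these same members. Smaller standard errors and narrower intervals without it therefore follow in part from that choice.

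For 12 members the interval with all libraries held no difference as large as 1.5-fold, and for 9 of these that was also so without WT 2 and KO 2. Srebf2 was at 43.3 ± 2.61 CPM in the wild types and 43.2 ± 3.70 CPM in the knockouts, with an interval of -0.21 to 0.20. Scap had 62.3 ± 1.27 and 60.8 ± 5.05 CPM, with an interval of -0.22 to 0.15. The others of the 9 were Mvk, Ggps1, Lbr, Sc4mol, Ebp, Sc5d and Mbtps1. Without the pair, the intervals of Fdft1 (-0.61 to 0.18), Dhcr7 (-0.17 to 0.60) and Insig2 (-0.42 to 0.66) did reach 1.5-fold, and those of Acat2, Mvd and Lss no longer did. Hmgcs1 (332 ± 138 and 333 ± 81.6 CPM) had an interval of -0.67 to 0.68, and Insig1 (115 ± 49.3 and 104 ± 45.7 CPM) one of -0.98 to 0.68. The largest log2 fold change among members was -0.39, for Idi1, with an interval of -1.24 to 0.47.

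**Figure D4:**
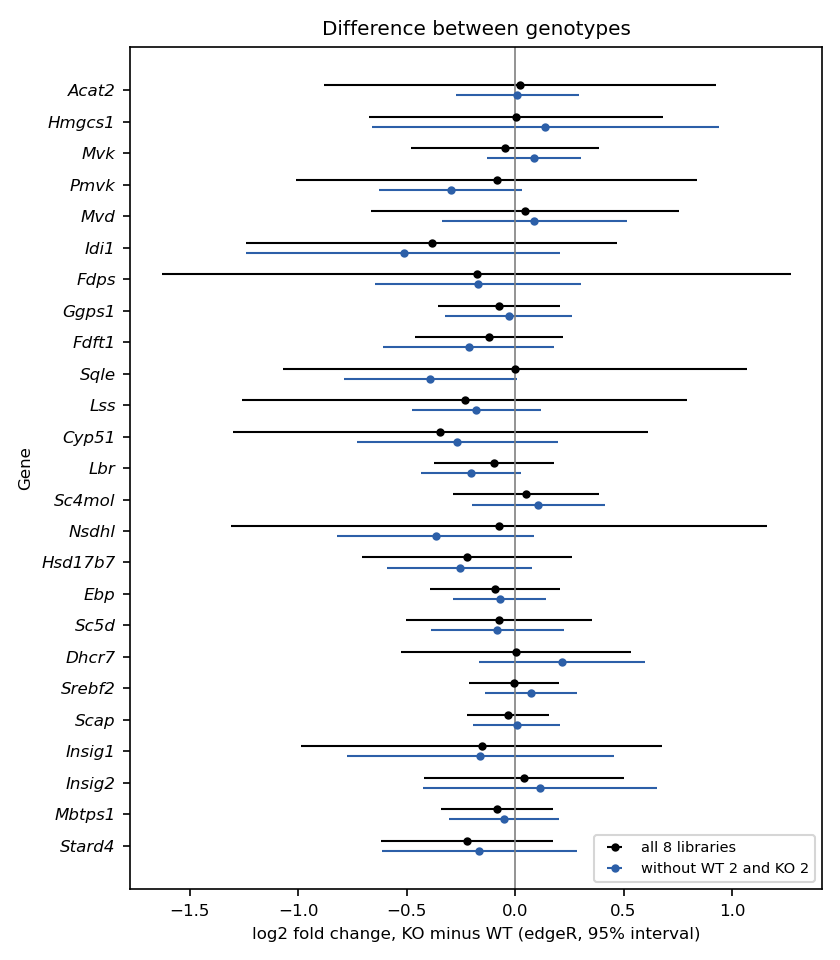
Log2 fold change of each tested member, knockout minus wild type, from edgeR with 95% intervals; black, all 8 libraries; blue, without WT 2 and KO 2. Every black interval spans 0, and those of Fdps, Nsdhl, Sqle, Lss and Acat2 are much shorter in blue. WT 2 and KO 2 were left out after their high values in such genes were seen.

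The neighbouring steps were covered by 5 further lists. In edgeR 0 of their 80 tested genes passed between genotypes, against 0.0138% of all genes. An unadjusted p under 0.05 was found for 2 of the 80 (Dolk and Elovl5), against 2.23% of all genes. Among 19 genes that use isoprenoids for prenylation, dolichol and ubiquinone, 10 had a log2 fold change above 0 (median 0.00), and the 3 smallest p belonged to Dolk (dolichol kinase; 129 ± 7.90 and 149 ± 7.45 CPM in wild type and knockout), Chm and Rce1. Among 15 genes for retention and degradation of sterol-regulated proteins in the endoplasmic reticulum, 7 were above 0 with a median of 0.00, led by Rnf145 (83.3 ± 1.89 and 71.0 ± 11.7 CPM), Syvn1 and Faf2. Among 10 genes of the COPII coat, which carries SCAP towards the Golgi, 5 were above 0 with a median of 0.00, led by Sar1a, Sec13 and Sec24c. Among 20 genes of cholesterol esterification and transfer, 12 were above 0 with a median of 0.06, led by Cav1 (4632 ± 209 and 3815 ± 171 CPM), Osbpl8 and Soat1. DESeq2 called Cav1 lower (log2 fold change -0.28, adjusted p = 0.0171), and no other gene of these lists, against 0.102% of all genes.

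The list of the SREBP1 arm had 16 tested genes, 8 above 0 with a median of -0.01 and none called, with the smallest p for Elovl5 (111 ± 10.3 and 131 ± 12.1 CPM), Scd1 and Thrsp. These genes shared the pattern of the sterol enzymes: WT 2 and KO 2 were both highest for 10 of 16 (62.5%, against 14.4% of all genes), by at least 1 log2 unit for 7 (against 0.179%). Acly, which makes cytosolic acetyl-CoA from citrate, was at 249, 1321, 279 and 262 CPM in the wild types and 183, 1508, 218 and 228 CPM in the knockouts. Acss2, which makes it from acetate, was at 667 CPM in WT 2 and 629 CPM in KO 2 and at 85.8 to 134 CPM in the other 6 libraries. Fasn, fatty acid synthase, had 7603 and 9532 CPM in this pair, against 1403 to 2382 CPM elsewhere; these 3 genes were chosen after their values were seen. Srebf1 itself, at 349 to 431 CPM in the wild types and 347 to 463 CPM in the knockouts, was highest in WT 1 and KO 2. Scd1 was highest in WT 4 among wild types. Without WT 2 and KO 2, 2 of the 16 genes had a log2 fold change above 0 (51.6% of all genes), with a median of -0.29. There, 5 were at an unadjusted p under 0.05 (3.74% of all genes) and 0 were called. The pair was left out after its high values were seen, and it was highest for 10 of these 16 genes. Smaller p and the balance without it therefore follow in part from that choice.

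**Figure D5:**
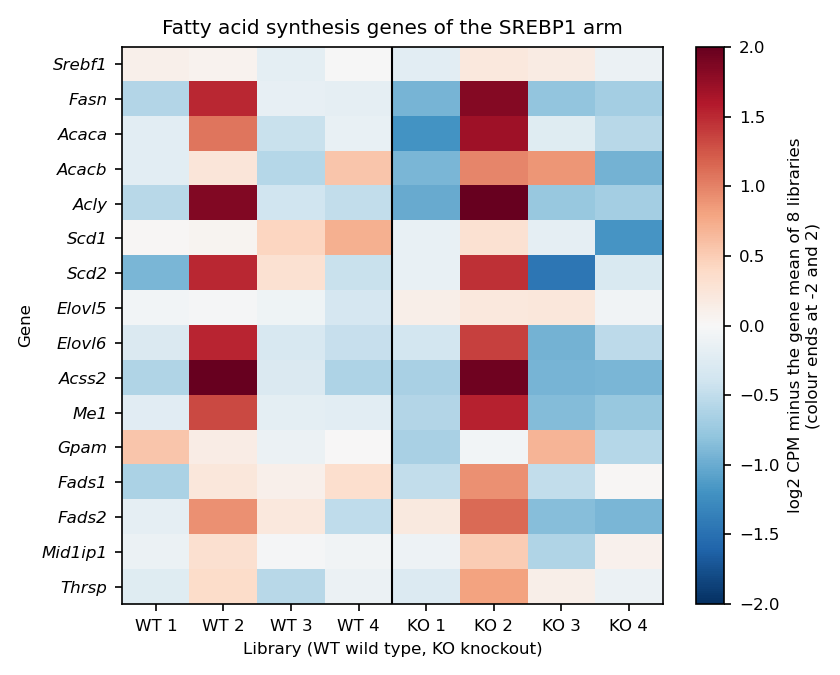
Level of 16 fatty acid synthesis genes in the 8 libraries, as log2 CPM minus the gene's mean (colour). Acly, Acss2, Fasn, Elovl6, Me1, Acaca and Scd2 are red in WT 2 and KO 2, whereas Srebf1, Elovl5, Scd1 and Gpam are pale there.

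In the other 4 lists, WT 2 and KO 2 were both highest for 7 of 15 degradation genes, 3 of 10 COPII genes, 4 of 19 isoprenoid genes and 1 of 20 transfer genes, none by 1 log2 unit. Of all tested genes, 14.4% had this order. Vcp, an ATPase that draws ubiquitinated proteins out of the membrane and an example chosen after its values were seen, was at 139 and 151 CPM in the pair and at 100 to 116 CPM in the others. None of the 15 adipocyte genes, the 18 macrophage genes or the 10 endothelial genes had WT 2 and KO 2 both highest. Of the tested epithelial genes 2 of 9 did (Krt8 and Krt18), and of the proliferation genes 1 of 16 (Tyms).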

How the data were processed

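Each mouse has 1 deposited table of raw read counts by gene symbol; nothing in the whole-number values shows a normalization by the authors. In the submitters' processing notes, the genome is mm10 and the tools are STAR 2.4.0g1, FastQC 0.11.2, featureCounts, edgeR and Cufflinks, with no roles stated, and the sources used here give no strand setting. Exon positions (other values) came from the authors' deposited merged annotation, in which 2457 symbols share exonic bases with another.

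After filterByExpr and TMM scaling, edgeR 4.0.16 (R 4.3.3) compared the genotypes with its quasi-likelihood test, using robust dispersion, no covariate and Benjamini-Hochberg adjustment over 14493 genes. The labels give separate mice, and no pair within a genotype agreed within sampling noise (smallest chi-square per degree of freedom 63.0). The SE is the one the F statistic implies. CPM uses TMM-scaled library sizes, and log2 CPM a prior count of 2. The procedure was also run on simulated counts with known differences between genotypes. Those counts were drawn independently for each gene, so they do not cover libraries that are high in many genes together, such as WT 2 and KO 2. Alternatives were other scalings, filters and dispersion settings, DESeq2 1.42.0, limma 3.58.1 voom, a replicate block, and leaving out libraries. Members, lists, the rule for named genes (all members, the 3 smallest p per list) and the removal of WT 3 with KO 2 were chosen with earlier results of these data known; the removal of WT 2 with KO 2 was added after seeing the data. The targeted gene is not reported here.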

Additional observations from a re-analysis of the deposited data

Results flagged for a closer look

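Within a genotype, a library was marked when its gap to the nearest of the other 3, as a share of the group's range on the log2 CPM scale, exceeded Dixon's 95% critical value. Of 50 groups of 4 libraries (25 members in each genotype), 4 were marked, where chance gives about 1 in 20, or 2.5. All 4 marks fell on WT 2 or KO 2. Mvk was at 6.12 in WT 2 and at 5.33 to 5.40 in the other wild types. In KO 2, Pmvk was at 7.34 (5.75 to 5.95 in the other knockouts), Sqle at 4.98 (3.03 to 3.32) and Lss at 5.71 (4.33 to 4.4).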

How the results depend on the processing

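No member passed under any of 18 alternatives, the smallest adjusted p being 0.87. The count of all genes past the threshold was 2 with median-ratio scaling, the stricter filter and non-robust dispersion, 17 in DESeq2, and 0 with total counts, no low-count filter, limma voom, each library left out in turn, and either pair left out. With the replicate number as a replicate block it was 0, against 2 without. Over all tested genes, same-numbered libraries deviated from their genotype means with correlations of 0.117, -0.0152, -0.32 and -0.0173. No library correlated best with the library of its own number. Whether same-numbered libraries shared a litter, batch or day was not tested.

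Members near 0 changed direction, and the cause was not tested. The log2 fold change of Sqle was 0.00 with all libraries, -0.0151 with no filter, -0.00132 in DESeq2, -0.178 in voom, -0.171 with the block, -0.759 without WT 3 and KO 2, and -0.392 without WT 2 and KO 2. Hmgcs1 and Dhcr7 were at -0.00357 and -0.00543 with no filter, and Dhcr7 at -0.0677 without WT 3 and KO 2. Srebf2 was at 0.0275 with total counts, 0.046 without WT 3 and KO 2 and 0.0744 without WT 2 and KO 2, which put Scap at 0.00678. With 1 library left out, the lowest value came without KO 2 and the highest without WT 2 for Fdps (-0.959 to 0.611), Sqle (-0.701 to 0.31), Lss (-0.704 to 0.294), Cyp51 (-0.738 to 0.128), Nsdhl (-0.836 to 0.396) and Insig1 (-0.48 to 0.167). The ranges were -0.17 (without WT 4) to 0.314 (without WT 1) for Hmgcs1, -0.123 (WT 4) to 0.282 (WT 2) for Dhcr7, -0.0537 (KO 4) to 0.0361 (KO 2) for Srebf2, -0.0888 (KO 3) to 0.00629 (KO 2) for Scap and -0.167 (KO 3) to 0.173 (WT 1) for Insig2. Idi1 and Stard4 stayed below 0. The median correlation among all 25 members was 0.197, with 0.175 to 0.301 when 1 library was left out, 0.293 without WT 3 and KO 2 and 0.0129 without WT 2 and KO 2. Depth limits Idi1 most, with 29 to 80 counts per library.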

Other observations

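Across the transcriptome, 26 tested genes were higher in WT 2 and in KO 2 than in every other library of the same genotype by at least 1 log2 unit. Of these, 5 were members and 7 belonged to the fatty acid list. By the smaller of the 2 steps, the first were Acss2 (2.32), Acly (2.25), Parm1 (1.86), Fdps (1.79), Elovl6 (1.73) and Fasn (1.67), all named after their values were seen. Others, outside the lists, were Chchd10 (1.49), Tlcd2 (1.41), the monoacylglycerol acyltransferase Mogat2 (1.37) and the sorting receptor Sorl1 (1.32). Pnpla5, a lipase of the patatin family, had a step of 1.25 at a low level, with a lowest value of 0.103 CPM.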
